A study of Mus musculus with 41 samples.

Results

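Regulatory T (Treg) cells that were marked by tamoxifen were compared with unmarked Treg cells from the same kind of mouse, all of them with floxed Uhrf1 alleles. The comparison rests on 12 of the 41 RNA-seq libraries of the series: 6 of labeled Treg cells (GFP positive, tdTomato positive) and 6 of post-tamoxifen Treg cells (GFP positive, tdTomato negative), chosen by the names of the count columns and paired by the number in those names. Every mouse was Uhrf1fl/flFoxp3GFP-CreERT2Rosa26SorCAG-tdTomato, was 8 weeks old, and had eaten tamoxifen chow over 2 weeks and then standard chow over 4 weeks. The Cre enzyme is driven by Foxp3 and acts only with tamoxifen, so tdTomato marks cells that expressed Foxp3 while the drug was given, and these are the cells in which the floxed Uhrf1 alleles could recombine. Unlabeled cells carry the same floxed alleles and were exposed to the same chow. In these mice the label, the recombination of Uhrf1 and the time since a cell first expressed Foxp3 therefore cannot be told apart. Controls were 5 labeled and 5 post-tamoxifen libraries from Uhrf1+/+Foxp3GFP-CreERT2Rosa26SorCAG-tdTomato mice given the same chow.

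UHRF1 recognises hemimethylated DNA behind the replication fork and brings the maintenance methyltransferase DNMT1 to it, so that daughter cells keep the methylation pattern of the parent. Foxp3 is the lineage transcription factor of Treg cells, and the stability of its expression is tied to demethylation of regulatory DNA at the Foxp3 locus. Peripheral Treg cells span a central, lymph node-homing state, with high Ccr7, Bach2 and Tcf7, and an effector state with high Klrg1, Tigit, Icos, Il1rl1 and Prdm1.

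Depth was low and similar in both populations: total counts were between 1052731 and 2553989 in labeled libraries and between 1172214 and 2600299 in post-tamoxifen libraries. No pair of libraries within a group agreed within sampling noise. CD4 T cell marker genes summed to between 2558 and 3338 CPM (counts scaled to a common library total) in labeled and between 2490 and 3348 CPM in post-tamoxifen libraries. The 6 Treg markers summed to between 2849 and 3443 CPM in labeled cells and between 2500 and 2979 CPM in post-tamoxifen cells, except in post-tamoxifen number 3, where they summed to 1192 CPM. The libraries also fell into 2 sets by number. Summed G2 and mitosis genes were between 2966 and 6901 CPM in numbers 1 to 3 and between 432 and 742 CPM in numbers 4 to 6, in both populations. The labels give no name for that split. Values within numbers 1 to 3 and within numbers 4 to 6 are printed below for some genes and lists, and other genes also differed between them.

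Genes of other cell types were higher in post-tamoxifen libraries, and they are given first and kept apart from T cell genes. The 49 macrophage and monocyte genes summed to between 492 and 655 CPM in labeled libraries and to 1606, 1617, 3977, 755, 1037 and 758 CPM in post-tamoxifen numbers 1 to 6. In labeled libraries the list's sum was mostly Ctss (260 CPM on average), Axl (107 CPM) and Cybb (73.7 CPM), none of which differed past the threshold. The 10 defining macrophage genes, among them Csf1r, C1qa, C1qb, C1qc and Cd5l, summed to between 5.87 and 46 CPM in labeled and between 82.7 and 986 CPM in post-tamoxifen libraries. Csf1r, the receptor for the macrophage growth factor, had 2, 8, 32, 3, 9 and 4 counts in labeled numbers 1 to 6 and 97, 246, 700, 89, 44 and 51 counts in the post-tamoxifen partners. Of the 49 genes, 6 were at 0 in all labeled libraries. The difference ran the same way in 6 of 6 pairs, with a mean of -1038 CPM (labeled minus post-tamoxifen; exact paired sign-flip permutation test, two-sided, p = 0.0312, which is the smallest 6 pairs allow; 0.0624 after adjustment over 10 marker lists). Leaving out number 3 brought the mean to -581 CPM.

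Other lineages divided by number. Class II antigen presentation genes summed to between 123 and 144 CPM in labeled libraries and to 922, 413 and 814 CPM in post-tamoxifen numbers 1 to 3, against between 150 and 165 CPM in numbers 4 to 6. Plasma cell genes summed to at most 3.52 CPM in any labeled library, to 748, 166 and 382 CPM in post-tamoxifen numbers 1 to 3, and to at most 6.54 CPM in numbers 4 to 6. B cell genes were higher in post-tamoxifen cells in numbers 1 to 3 and lower in numbers 4 to 6, and dendritic cell genes summed to between 37.1 and 59.3 CPM in labeled against between 44.0 and 513 CPM in post-tamoxifen libraries. Ms4a1, which encodes the B cell protein CD20, had no count in any labeled library and 26, 14, 23, 0, 0 and 0 counts in post-tamoxifen numbers 1 to 6.

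**Figure D1:**
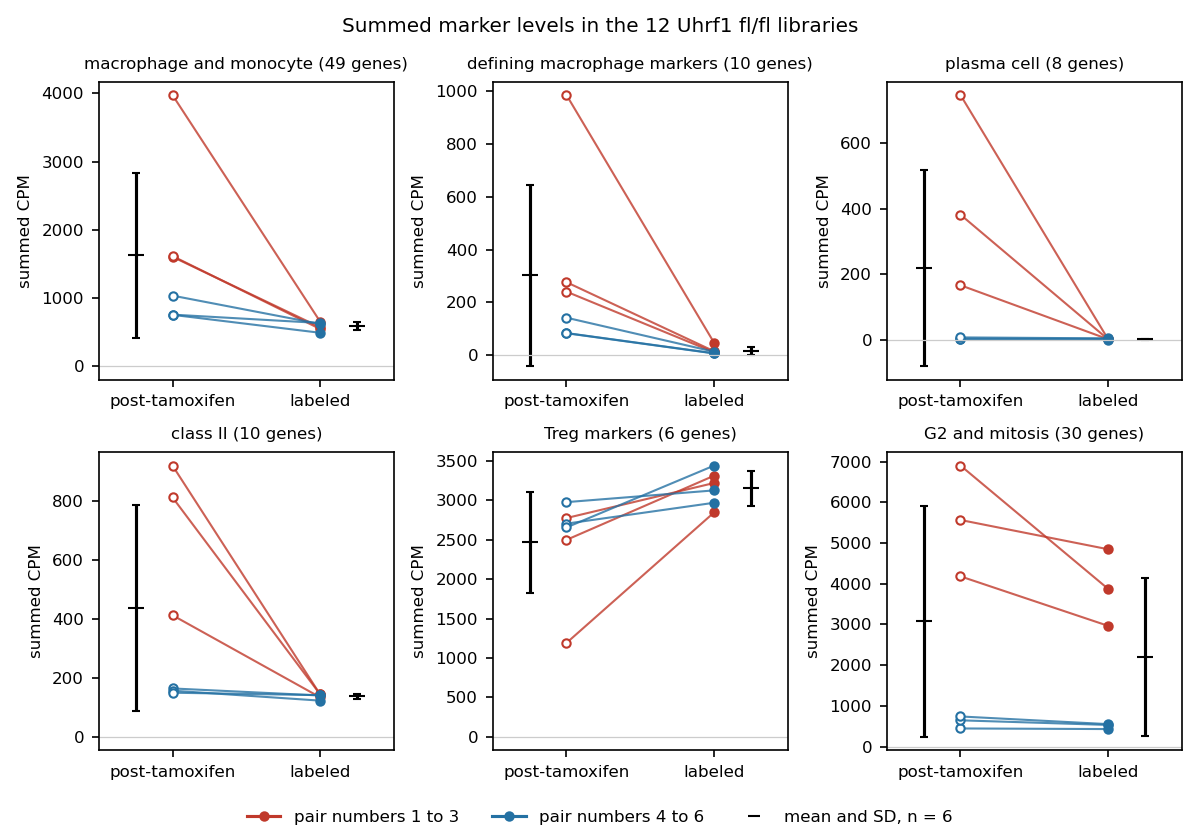
Summed CPM of 6 marker lists (y axis, CPM of total counts) in the 12 Uhrf1 fl/fl libraries, with open points for post-tamoxifen cells, filled points for labeled cells, lines joining libraries of the same number (red, numbers 1 to 3; blue, numbers 4 to 6), and the mean with SD (n = 6) beside them. Macrophage genes fall along all 6 lines, plasma cell genes along the red ones, and G2 and mitosis genes separate the red from the blue libraries.

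Across the transcriptome, labeled and post-tamoxifen Treg cells differed in many genes. Of 9199 genes tested in a paired fit, 433 were higher in labeled cells (4.71% of those tested) and 327 were lower (3.55%), at an adjusted p under 0.05 (edgeR's quasi-likelihood test with the pair number as a block, Benjamini-Hochberg adjustment). Of these, 351 of the higher and 249 of the lower genes had the same sign in 6 of 6 pairs, and 103 and 100 differed by at least 2-fold. All 6 labeled libraries lay above all 6 post-tamoxifen libraries for 121 genes (1.32%), and below them for 82 genes (0.891%). The median log2 difference over all tested genes was -0.004. Without the block the counts were 130 higher and 72 lower.

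Carry-over genes sat almost wholly on the lower side. Of the called lower genes, 24 belonged to marker lists of other lineages, including 17 of the 22 tested macrophage and monocyte genes, 4 of the 7 tested class II genes and 2 of the 3 tested dendritic cell genes. Only 2 such genes were called higher in labeled cells: Lilrb4, which activated T cells also express and whose reads can be shared with its near copy Gp49a, and Epcam. Outside the lists, the 10 largest falls, counting genes whose log2 CPM averaged 4 or more, began with Syk and Lrp1. Syk, a kinase of B cell and Fc receptor signalling, had between 0.414 and 3.37 CPM in labeled cells (median 1.15) and between 8.06 and 96.7 CPM in post-tamoxifen cells (median 32.1). Lrp1, a scavenger receptor, had between 0.958 and 9.64 CPM against between 37.2 and 297 CPM. Neither gene's groups overlapped, and their log2 fold changes were -4.86 ± 0.33 (SE; adjusted p = 1.18e-11) and -4.38 ± 0.28 (adjusted p = 1.22e-08). Mpeg1, Trf, Itgad, Wdfy4, Sdc3, Marcks, Myo10 and Lgmn completed the 10 at that level, with labeled means between 2.28 and 15.4 CPM, and Wdfy4 lost its call without number 5. Myo10 ranged from 29.1 to 46.3 CPM in post-tamoxifen libraries (scaled together with controls), whose macrophage sums lay between 755 and 3977 CPM. Myo10 kept its call in all 19 alternatives, as did Syk, Lrp1, Trf and Sdc3. In controls the log2 fold change of Myo10 was -2.585 (adjusted p = 6.59e-05, the same edgeR test). In bulk RNA, fewer cells of a type and less RNA per cell cannot be told apart, and the part of carried-over cells in these falls was not tested beyond a fit that held the summed macrophage and B cell signal constant. That fit called 337 genes higher and 283 lower, of which 226 and 157 were also called higher and lower in the paired fit. The macrophage sum was lower in labeled cells in 6 of 6 pairs, so that fit cannot fully separate carry-over from the label. A call could be lost in it with nearly the same log2 fold change, as for Ccr3 (-1.50, then -1.475). It could also be lost with a smaller one, as for Mki67 (-0.35, then -0.04). Among genes named here, that fit lost the calls of Uhrf1, Tnfrsf18, Ikzf2, Ccr3, Eomes, Mki67, Top2a, Rb1, Jun, Tgfbr3, Zrsr1, Tnfrsf8 and Tcf7. It also lost those of Itgad, Marcks, Wdfy4, Melk, Gbp1, Mcm2, Mcm5, Itgb8, Nt5e and Pdk1. The adjusted p of these genes lay between 0.0532 (Tnfrsf8) and 0.916 (Mki67).

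**Figure D2:**
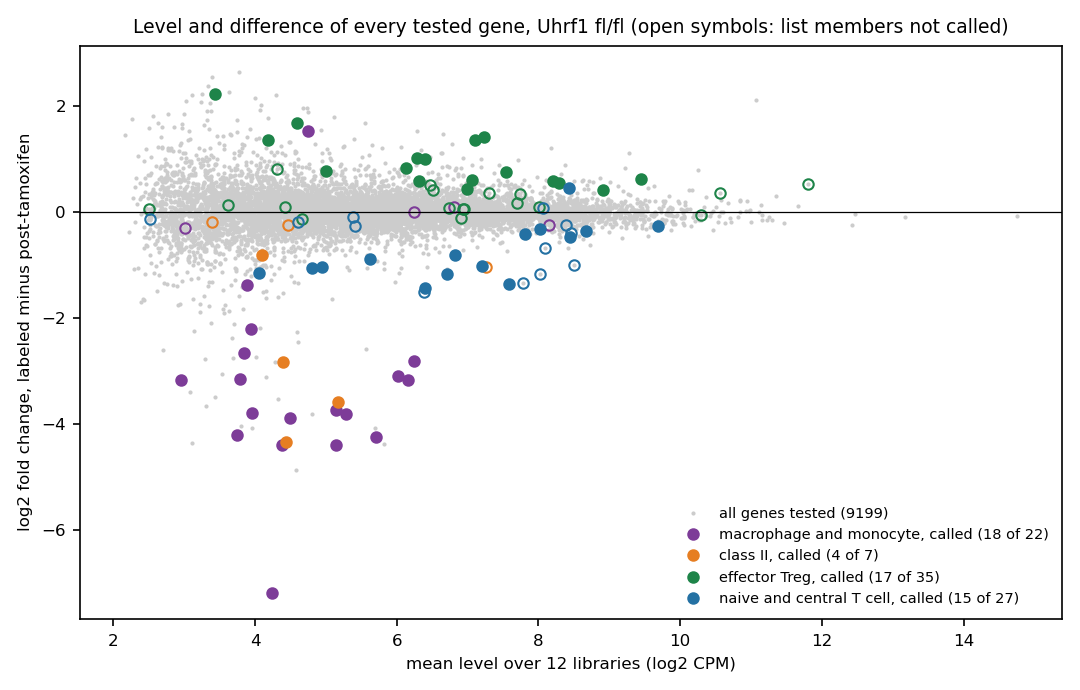
Mean level (x axis, log2 CPM over 12 libraries) against the log2 fold change of labeled minus post-tamoxifen cells (y axis) for the 9199 tested genes in grey, with 4 gene lists in colour (filled, called; open, not called). Macrophage (purple) and class II genes (orange) lie far below 0 at low levels, effector Treg genes (green) mostly above 0 and naive T cell genes (blue) mostly below.

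Because UHRF1 acts on CpG sites, the CpG content of promoters was counted in RefSeq windows of 300 bases (250 before and 50 after the start, GRCm38.p6). A window was matched for 327 of the higher, 238 of the lower and 6952 of all tested genes. The median was 18 CpG in higher genes (quartiles 9 and 28), 21 in lower genes (11 and 29) and 22 in all tested genes (15 and 29). The AP-1 motif TGANTCA was present on either strand in 7.95% of higher, 5.46% of lower and 4.32% of all windows. The TCF/LEF motif TCAAAG was in 8.56% of higher, 11.8% of lower and 11.5% of all windows, and the FOXO motif GTAAACA in 3.06%, 3.78% and 2.36%. An NF-kB motif was present in 3.67% of higher windows (12 windows), 1.68% of lower (4) and 1.7% of all windows (118). All of these are matches of letters and not sites of binding. The 250 bases before the start are shown for Uhrf1, for Actn1 and Nsg2 among the lower genes and for Nrp1, Fgl2 and Tigit among the higher genes, as examples of genes described below, with CpG in capitals.
Uhrf1 (chr17:56303087-56303336, plus strand): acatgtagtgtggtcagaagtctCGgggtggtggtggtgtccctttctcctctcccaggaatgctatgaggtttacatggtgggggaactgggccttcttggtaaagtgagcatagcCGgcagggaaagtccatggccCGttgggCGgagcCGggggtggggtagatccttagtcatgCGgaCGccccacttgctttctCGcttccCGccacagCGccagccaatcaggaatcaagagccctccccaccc
Actn1 (chr12:80260364-80260613, minus strand): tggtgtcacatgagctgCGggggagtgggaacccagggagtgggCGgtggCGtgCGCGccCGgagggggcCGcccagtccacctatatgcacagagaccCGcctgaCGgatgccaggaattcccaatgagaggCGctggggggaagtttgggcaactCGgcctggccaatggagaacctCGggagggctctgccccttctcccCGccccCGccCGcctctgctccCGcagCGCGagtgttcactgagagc
Nsg2 (chr11:32000169-32000418, plus strand): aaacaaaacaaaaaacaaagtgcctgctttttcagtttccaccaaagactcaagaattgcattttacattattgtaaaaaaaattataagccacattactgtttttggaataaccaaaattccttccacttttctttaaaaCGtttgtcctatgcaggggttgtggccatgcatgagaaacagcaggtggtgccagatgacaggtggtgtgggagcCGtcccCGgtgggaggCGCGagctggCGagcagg
Nrp1 (chr8:128358823-128359072, plus strand): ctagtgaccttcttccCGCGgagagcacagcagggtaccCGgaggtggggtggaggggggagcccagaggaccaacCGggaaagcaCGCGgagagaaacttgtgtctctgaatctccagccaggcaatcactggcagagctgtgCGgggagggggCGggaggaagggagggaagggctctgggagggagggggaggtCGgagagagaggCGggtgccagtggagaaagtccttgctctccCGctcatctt
Fgl2 (chr5:21372423-21372672, plus strand): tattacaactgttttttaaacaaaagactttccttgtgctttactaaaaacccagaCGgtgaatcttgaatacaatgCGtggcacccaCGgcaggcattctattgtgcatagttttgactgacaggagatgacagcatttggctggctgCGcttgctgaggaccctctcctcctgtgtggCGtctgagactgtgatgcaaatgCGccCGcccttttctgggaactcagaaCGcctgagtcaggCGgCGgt
Tigit (chr16:43664185-43664434, minus strand): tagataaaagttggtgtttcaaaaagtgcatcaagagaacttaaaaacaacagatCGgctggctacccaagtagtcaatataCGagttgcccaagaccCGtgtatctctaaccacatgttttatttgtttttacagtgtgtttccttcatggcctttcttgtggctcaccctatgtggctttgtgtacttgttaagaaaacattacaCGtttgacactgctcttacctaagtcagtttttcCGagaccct

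The window of 250 bases held 10 CpG in Uhrf1, 18 CpG in Actn1, 6 CpG in Nsg2, 11 CpG in Nrp1, 10 CpG in Fgl2 and 5 in Tigit. Among these 6 windows Fgl2 alone held the AP-1 letters, and none held those of TCF/LEF, FOXO or NF-kB. No methylation was measured in these libraries, and the CpG counts describe sequence alone.

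The floxed gene itself was lower in labeled cells. Uhrf1 (chr17:56303321-56323486, plus strand, mm10) was at 90.4, 69.7, 73.7, 10.5, 17.4 and 19.06 CPM in labeled numbers 1 to 6 and at 152, 125, 158, 19.02, 33.6 and 26.9 CPM in the post-tamoxifen partners. Each labeled library was below its partner, but the 2 groups overlapped, because both populations of numbers 1 to 3 were far above numbers 4 to 6. The means were 46.8 ± 34.9 and 85.6 ± 65.9 CPM (SD, n = 6), and the paired log2 fold change was -0.84 ± 0.13 (SE; adjusted p = 6.15e-05). It was -0.90 within numbers 1 to 3 and -0.75 within numbers 4 to 6, the latter not past the threshold (adjusted p = 0.18). The call was also lost without the block (adjusted p = 0.699), where the spread between numbers enters the error, and in fits that add the ex-Foxp3 libraries (0.217) or all pulse-chase libraries (0.205), or that hold the carry-over signal constant (-0.60, 0.217). The table counts reads over the whole gene, so reads from floxed and from retained exons are not separated, and a remaining level does not measure the share of cells that recombined.

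Foxp3 (chrX:7579676-7595243, plus strand) did not pass the test. It was at 364, 360, 321, 384, 513 and 364 CPM in labeled numbers 1 to 6 and at 289, 331, 129, 428, 458 and 444 CPM in post-tamoxifen numbers 1 to 6, so that labeled cells were higher in 4 pairs and lower in 2. Its log2 fold change was 0.23 ± 0.21 (adjusted p = 0.645), it was 0.0206 without number 3, and its sign turned in numbers 4 to 6 alone (-0.10, adjusted p = 0.695) and with the carry-over signal held constant (-0.42, adjusted p = 0.0301). The low post-tamoxifen value was that of number 3, the library with the most macrophage signal, and the part of that signal in it was not tested.

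Of 23 tested genes of DNA methylation and its removal, 0 were higher and 3 lower (median -0.12), beside 4.71% and 3.55% of all genes. Besides Uhrf1, the lower genes were the methylcytosine dioxygenases Tet1 and Tet3. Tet1 ranged from 12.5 to 23.7 CPM in labeled cells (median 19) and from 14.1 to 54.9 CPM in post-tamoxifen cells (median 33.1), lower in 6 of 6 pairs (-0.82 ± 0.21, adjusted p = 0.0123). Tet3 was at 327 ± 33.1 against 401 ± 64.4 CPM (-0.29 ± 0.08, adjusted p = 0.0234). Both calls were lost without number 5 (adjusted p = 0.0732 for Tet1 and 0.0644 for Tet3) and without number 6 (0.0807 and 0.16). Tet1 was at -0.44 in numbers 1 to 3 alone and -1.18 in numbers 4 to 6 alone, and Tet3 at -0.13 and -0.44. Dnmt1, the maintenance methyltransferase, was at 378 ± 122 and 430 ± 121 CPM and did not pass (-0.20 ± 0.08, adjusted p = 0.116). None of the 22 germline and placental genes on the list, which are often silenced by methylation, had enough counts to be tested. Among 5 tested imprinted genes, Zrsr1 was higher in labeled cells in 6 of 6 pairs (74.4 ± 20.8 against 47.8 ± 12.6 CPM, 0.65 ± 0.13, adjusted p = 0.00176). Its call was lost in the edgeR fit without the block (adjusted p = 0.0996). The other 4 were not called, and the list's median was 0.07, or -0.14 in numbers 4 to 6 alone. Imprinted genes are expressed from 1 parental copy under the control of DNA methylation.

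A minority of Treg identity genes were higher in labeled cells. Of 30 core Treg genes tested, 10 were higher and 0 lower, with a median log2 fold change of 0.31 beside -0.004 for all genes. Among all genes, 4.71% were higher and 3.55% lower. Nrp1, a semaphorin receptor of thymus-derived Treg cells, ranged from 510 to 874 CPM in labeled cells (median 795) and from 281 to 506 CPM in post-tamoxifen cells (median 453). The groups did not overlap, and the log2 fold change was 0.82 ± 0.07 (adjusted p = 4.35e-10), with 0.79 within numbers 1 to 3 and 0.85 within numbers 4 to 6. Tnfrsf1b, the TNF receptor 2 that sustains Treg cells, was likewise higher without overlap (between 352 and 425 CPM against between 176 and 302 CPM, 0.71 ± 0.08, adjusted p = 6.14e-07). Tnfrsf18, which encodes GITR, was at 206 ± 38.2 against 143 ± 30.0 CPM (0.54 ± 0.10, adjusted p = 0.000897), a call lost in numbers 4 to 6 alone (0.37, adjusted p = 0.0552) and with the carry-over signal held constant (0.21, adjusted p = 0.556). Ikzf2, which encodes Helios, was at 1523 ± 141 against 917 ± 264 CPM, but its call (0.79 ± 0.17, adjusted p = 0.0351) was lost on leaving out any of numbers 1, 2, 4, 5 or 6.

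The core list did not move as 1 block. Il2ra, the high-affinity IL-2 receptor chain, was at 464 ± 57.4 CPM in labeled and 562 ± 149 CPM in post-tamoxifen cells and did not pass (-0.24 ± 0.22, adjusted p = 0.638). It was -0.62 in numbers 4 to 6 alone (adjusted p = 7.42e-07) and 0.15 in numbers 1 to 3 alone (adjusted p = 0.801), and without number 3 it was -0.43 (adjusted p = 0.00425). Ctla4 was at 234 ± 40.5 and 221 ± 60.2 CPM (0.11 ± 0.09, adjusted p = 0.572), and its sign turned without number 3 (-0.02). The list's median was 0.45 in numbers 1 to 3, 0.09 in numbers 4 to 6 and -0.13 with the carry-over signal held constant, where 7 members were higher and 7 lower.

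Many effector Treg genes were higher in labeled cells. Of 35 tested, 17 were higher and 0 lower, beside 4.71% and 3.55% of all genes, with a median of 0.51. Klrg1, a receptor of terminally differentiated cells, ranged from 10.1 to 68.0 CPM in labeled cells (median 34.4) and from 2.69 to 23.5 CPM in post-tamoxifen cells (median 11.1). Labeled cells were higher in 6 of 6 pairs (1.67 ± 0.21, adjusted p = 2.68e-06). Fgl2, a secreted suppressor molecule, was at 104 ± 28.9 against 50.7 ± 18.8 CPM (1.02 ± 0.14, adjusted p = 6.2e-06), and Rora, a nuclear receptor of tissue Treg cells, at 233 ± 32.1 against 140 ± 39.3 CPM (0.76 ± 0.10, adjusted p = 1.21e-05). Gata3 was at 366 ± 42.8 against 256 ± 59.5 CPM (0.54 ± 0.08, adjusted p = 4.21e-05). These 4 genes rose in all 6 pairs, and only Rora's groups did not overlap.

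Receptors of the effector state followed the same direction. Tigit, an inhibitory receptor, lay between 181 and 210 CPM in labeled cells (median 190) and between 48.2 and 128 CPM in post-tamoxifen cells (median 65.9), without overlap (1.35 ± 0.21, adjusted p = 0.00602). Il1rl1, the IL-33 receptor, lay between 146 and 291 CPM against between 35.7 and 136 CPM (1.41 ± 0.27, adjusted p = 0.029), and its call was lost without number 1, 5 or 6 (adjusted p between 0.0662 and 0.106). The gene of the PD-1 receptor, Pdcd1, stood at 152 ± 31.8 against 85.3 ± 18.7 CPM (0.83 ± 0.11, adjusted p = 1.07e-05). The post-tamoxifen values of Tigit in numbers 1 and 2, at 128 and 117 CPM, were the highest of that group.

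Tnfrsf8, which encodes CD30, was at 24.7 CPM on average against 9.60 CPM (1.36 ± 0.25, adjusted p = 0.000446). Icos (345 ± 73.3 against 243 ± 104 CPM, 0.58 ± 0.12, adjusted p = 0.00575), Prdm1, which encodes Blimp-1 (0.83 ± 0.14, adjusted p = 0.000186), and Areg, which encodes the tissue repair factor amphiregulin (16.01 ± 6.41 against 3.50 ± 3.26 CPM, 2.22 ± 0.43, adjusted p = 0.0011), were chosen after their values were seen. Ahnak, a large scaffold protein, did not pass (4110 ± 466 against 2996 ± 1093 CPM, 0.53 ± 0.14, adjusted p = 0.0734), though it passed in numbers 4 to 6 alone (0.84, adjusted p = 2.35e-17). The effector list's median was 0.27 in numbers 1 to 3 and 0.74 in numbers 4 to 6, and 0.95 with the carry-over signal held constant. Follicular helper genes had 6 higher and 2 lower of 15, beside 4.71% and 3.55% of all genes. Btla (not called without number 4) and Il6ra were lower. Integrins had 6 higher and 0 lower of 14, with Itgav at 0.50 and Itga2 at 1.136. S100, annexin and galectin genes had 3 higher and 0 lower of 17, with S100a6 at 0.61, S100a11 at 0.42 and S100a10 at 0.41, all 3 also members of the effector list.

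Of naive and central T cell genes, 14 of 27 tested were lower in labeled cells, with 1 higher and a median of -0.68. Among all genes, 3.55% were lower and 4.71% higher. Actn1, an actin crosslinker, was at 72.4 to 142 CPM in labeled cells (median 97.5) and 156 to 416 CPM in post-tamoxifen cells (median 275), without overlap (-1.37 ± 0.14, adjusted p = 1.1e-05). Ccr7, the receptor that brings cells into lymph nodes, was at 28.7, 45.7, 46.3, 42.1, 34.3 and 61.1 CPM in labeled numbers 1 to 6 and at 51.0, 118, 70.8, 178, 154 and 169 CPM in the post-tamoxifen partners (-1.44 ± 0.17, adjusted p = 3.1e-05). The transcriptional repressor Bach2, which restrains effector fate, was at 60.8 ± 11.6 against 146 ± 64.7 CPM, without overlap (-1.18 ± 0.14, adjusted p = 4.51e-06). Post-tamoxifen levels of these 3 genes were higher in each of numbers 4 to 6 than in any of numbers 1 to 3.

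Nsg2 (-1.02 ± 0.11, adjusted p = 5.6e-07) and Als2cl (-0.82 ± 0.10, adjusted p = 1.63e-06) were lower in 6 of 6 pairs, as was Tcf7, which encodes TCF1 (741 ± 185 against 914 ± 293 CPM, -0.28 ± 0.08, adjusted p = 0.0217, not called without number 5). Other members had large differences that did not pass. Satb1, a chromatin organiser, was at 251 ± 121 against 475 ± 102 CPM (-0.998 ± 0.29, adjusted p = 0.126), and Bcl2, a survival factor, at 204 ± 58.0 against 338 ± 142 CPM (-0.68 ± 0.19, adjusted p = 0.0778). In numbers 4 to 6 alone they passed at -1.68 and -1.03, and Satb1 also passed in numbers 1 to 3 alone (-0.38, adjusted p = 0.00434). DESeq2 called both (adjusted p = 0.0115 for Satb1 and 0.024 for Bcl2), and Bcl2 passed without number 3 (-0.87, adjusted p = 8.17e-08). Lef1 was at 297 ± 47.7 against 402 ± 129 CPM (-0.39 ± 0.18, adjusted p = 0.281), with 0.04 in numbers 1 to 3 and -0.82 in numbers 4 to 6. Il7r, the IL-7 receptor chain, went the other way and was higher in labeled cells in 6 of 6 pairs (394 ± 93.0 against 293 ± 97.5 CPM, 0.45 ± 0.08, adjusted p = 0.000441). Numbers 4 to 6 held the larger differences of this list (median -0.94 against -0.37 in numbers 1 to 3). Their post-tamoxifen libraries had lower macrophage, plasma cell and mitosis sums alike. These cannot be told apart here, and their part in the differences was not tested.

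**Figure D3:**
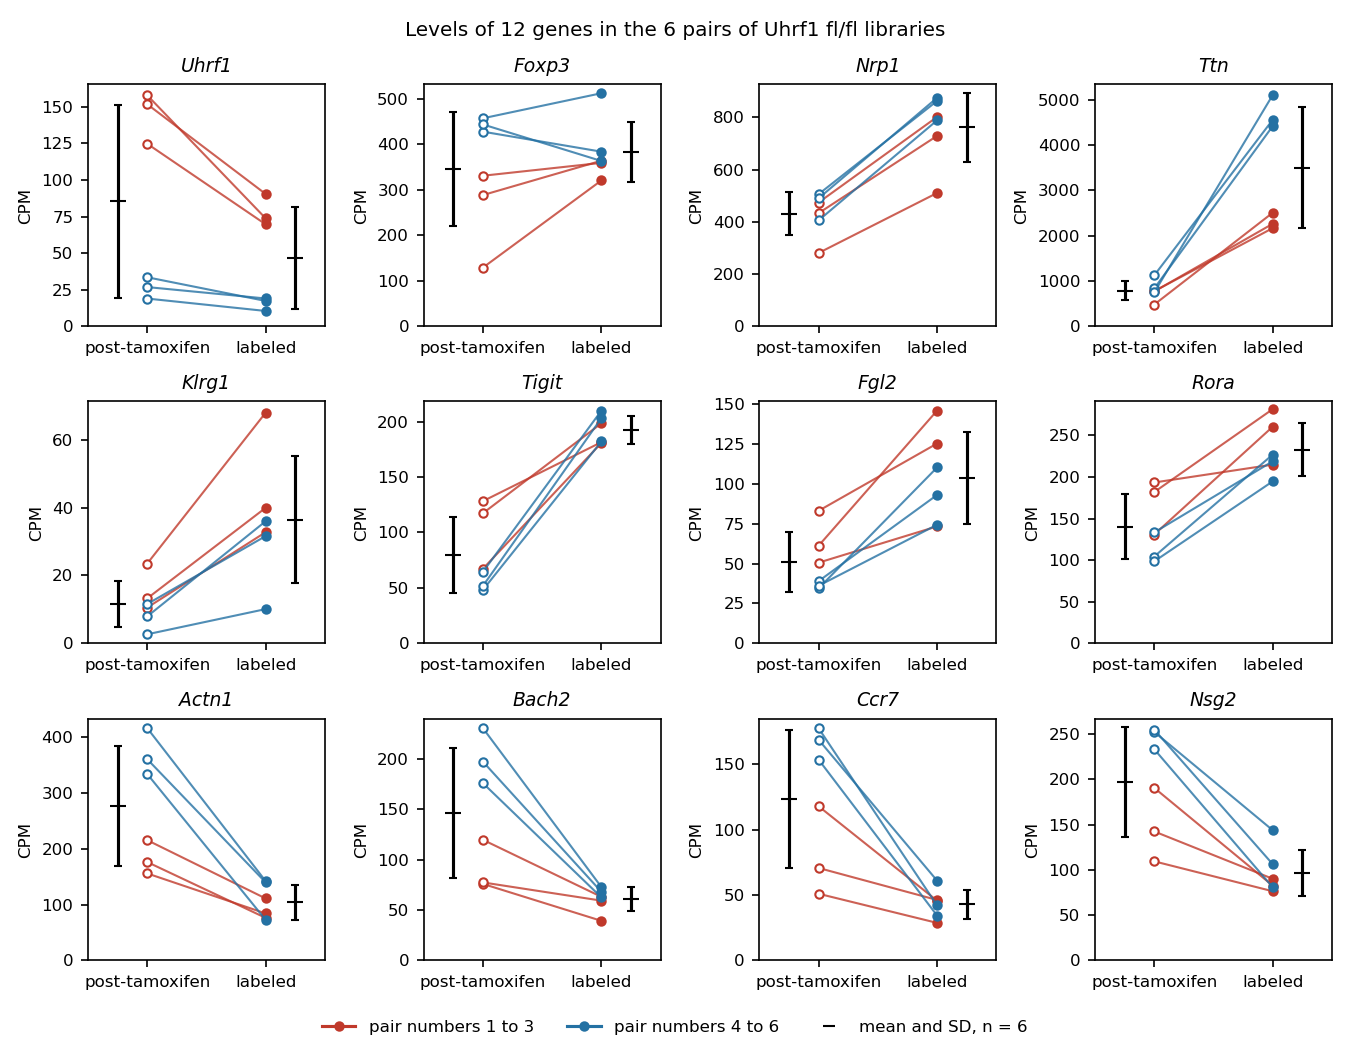
Levels (y axis, CPM) of 12 genes in post-tamoxifen (open) and labeled (filled) libraries, with lines joining libraries of the same number (red, numbers 1 to 3; blue, numbers 4 to 6) and the mean with SD (n = 6) beside them. All 6 lines rise for Nrp1, Ttn, Klrg1, Tigit, Fgl2 and Rora and fall for Uhrf1, Actn1, Bach2, Ccr7 and Nsg2, while those of Foxp3 go both ways.

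Among genes with a labeled mean of at least 16 CPM, a limit set after those falls were seen, the 12 largest falls were Ccr7, Actn1, Bach2, St8sia1, Kif4, Ugcg, Tgfbr3, Ramp1, Myb, Gpr146, Nsg2 and Prkd3. St8sia1, a ganglioside sialyltransferase, was at 39.6 ± 14.1 against 88.2 ± 23.2 CPM (-1.16 ± 0.15, adjusted p = 4.7e-06), and Ugcg, which makes the first glycosphingolipid of the same route, at 67.4 ± 10.04 against 141 ± 17.8 CPM without overlap (-1.07 ± 0.10, adjusted p = 1.89e-08). Ugcg fell by much the same amount in numbers 1 to 3 (-1.03) and 4 to 6 (-1.11). Tgfbr3, the betaglycan receptor, was at 30.1 against 61.5 CPM on average (-1.07 ± 0.17, adjusted p = 0.000126). Myb, a factor of lymphocyte progenitors and central memory cells, was at 42.6 ± 14.1 against 88.3 ± 18.7 CPM (-1.06 ± 0.23, adjusted p = 0.0181) and lost its call without number 2, 4 or 5. Ikzf1, which encodes Ikaros and was chosen after its values were seen, ranged from 277 to 396 CPM against 421 to 606 CPM, without overlap (-0.62 ± 0.07, adjusted p = 3.82e-07).

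The 10 largest rises, at an average log2 CPM of 4 or more, a limit that leaves out Areg, began with Dnahc7a, Tshz2 and Ttn. Ttn (chr2:76703980-76982547, minus strand), which encodes the muscle protein titin, was at 2170, 2510, 2266, 4422, 5108 and 4561 CPM in labeled numbers 1 to 6 and at 778, 482, 772, 837, 750 and 1126 CPM in the post-tamoxifen partners. The groups did not overlap, and the log2 fold change was 2.099 ± 0.20 (adjusted p = 0.00269). Dnahc7a, an axonemal dynein (2.20 ± 0.34), Tshz2, a zinc finger factor (2.15 ± 0.29), Mctp1 (2.01 ± 0.28), Mtap2, a microtubule-associated protein of neurons (1.96 ± 0.23), Gp49a (1.95 ± 0.31), Fam160a1 (1.93 ± 0.33) and Naip5, an inflammasome sensor with several near copies (1.67 ± 0.18), had labeled means between 24.1 and 69.9 CPM. Bicd1 and Ttbk1 completed this set. Counts of Gp49a and Naip5 are uncertain, because reads from near-identical genes can be split between copies. Dst, a cytoskeletal linker with one of the smallest p-values (857 ± 252 against 387 ± 72.3 CPM, 1.11 ± 0.08, adjusted p = 6.7e-11), and Rnf43, a ubiquitin ligase that lowers Wnt receptors (149 ± 46.2 against 52.7 ± 10.2 CPM, 1.47 ± 0.11, adjusted p = 1.31e-10), were named after their values were seen. Neither gene's groups overlapped.

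Several receptors of migration and the transcription factor Eomes differed. Ccr9, the gut and thymus homing receptor, was at 0.701, 0.444, 5.78, 0, 0.414 and 0.389 CPM in labeled numbers 1 to 6 and at 26.2, 10.5, 15.4, 11.6, 2.65 and 13.4 CPM in post-tamoxifen numbers 1 to 6. Each labeled library was below its partner (-3.40 ± 0.55, adjusted p = 8.27e-05), with labeled levels below the 3 counts that a count of 0 allows, except in number 3. Ccr3 was at 8.50 ± 4.94 against 24.3 ± 14.2 CPM (-1.50 ± 0.25, adjusted p = 0.000127), not called in numbers 4 to 6 alone (adjusted p = 0.0933). Eomes was at 2.32 ± 3.22 against 14.4 ± 9.98 CPM (-2.77 ± 0.54, adjusted p = 0.00163), not called in numbers 1 to 3 alone (adjusted p = 0.0558). Cxcr4, which holds cells in bone marrow and tissues, was higher in 6 of 6 pairs (86.3 ± 23.2 against 53.1 ± 22.2 CPM, 0.75 ± 0.14, adjusted p = 0.000572), as were Cxcr3 (0.99 ± 0.20) and Cxcr5 (0.60 ± 0.15, not called without number 6). In all, 3 of 19 tested chemokine receptor and homing genes were higher and 5 lower, beside 4.71% and 3.55% of all genes.

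Signalling genes went both ways, and the counts in these lists stand beside 4.71% higher and 3.55% lower among all genes. Of 27 genes of proximal T cell receptor signalling, 4 were higher and 3 lower, with Grap2, an adaptor, at -0.59 ± 0.09 (adjusted p = 6.82e-05) and Nfatc1 at 0.33 ± 0.08 (adjusted p = 0.00802, not called without number 6). Of 24 genes induced through that receptor, 5 were higher and 1 lower: the NF-kB feedback gene Tnfaip3 was higher (0.47 ± 0.09, adjusted p = 0.000578), and Myc was lower (62.6 ± 13.2 against 105 ± 37.7 CPM, -0.69 ± 0.17, adjusted p = 0.0176), a call lost without number 4, 5 or 6. Myc was at -0.21 in numbers 1 to 3 alone and -1.14 in numbers 4 to 6 alone. Members of AP-1 diverged, since Junb was higher (213 ± 69.3 against 150 ± 36.5 CPM, 0.50 ± 0.09, adjusted p = 0.000676) and Jun lower in 6 of 6 pairs (13.5 ± 12.4 against 28.0 ± 27.1 CPM, -1.07 ± 0.24, adjusted p = 0.00364). Bcl2l11, which encodes the death-promoting protein Bim, was lower in 6 of 6 pairs (59.0 ± 11.9 against 92.3 ± 13.9 CPM, -0.65 ± 0.13, adjusted p = 0.0013). It was at -0.32 in numbers 1 to 3 alone and -0.99 in numbers 4 to 6 alone. Of 22 cholesterol and fatty acid synthesis genes, 0 were higher and 2 lower, Hmgcs1 (-0.93 ± 0.16, adjusted p = 0.000211) and Idi1 (not called without number 2, 4 or 6), with a list median of -0.26. Of 48 interferon-stimulated genes 2 were higher and 3 lower, with a median of -0.06.

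**Figure D4:**
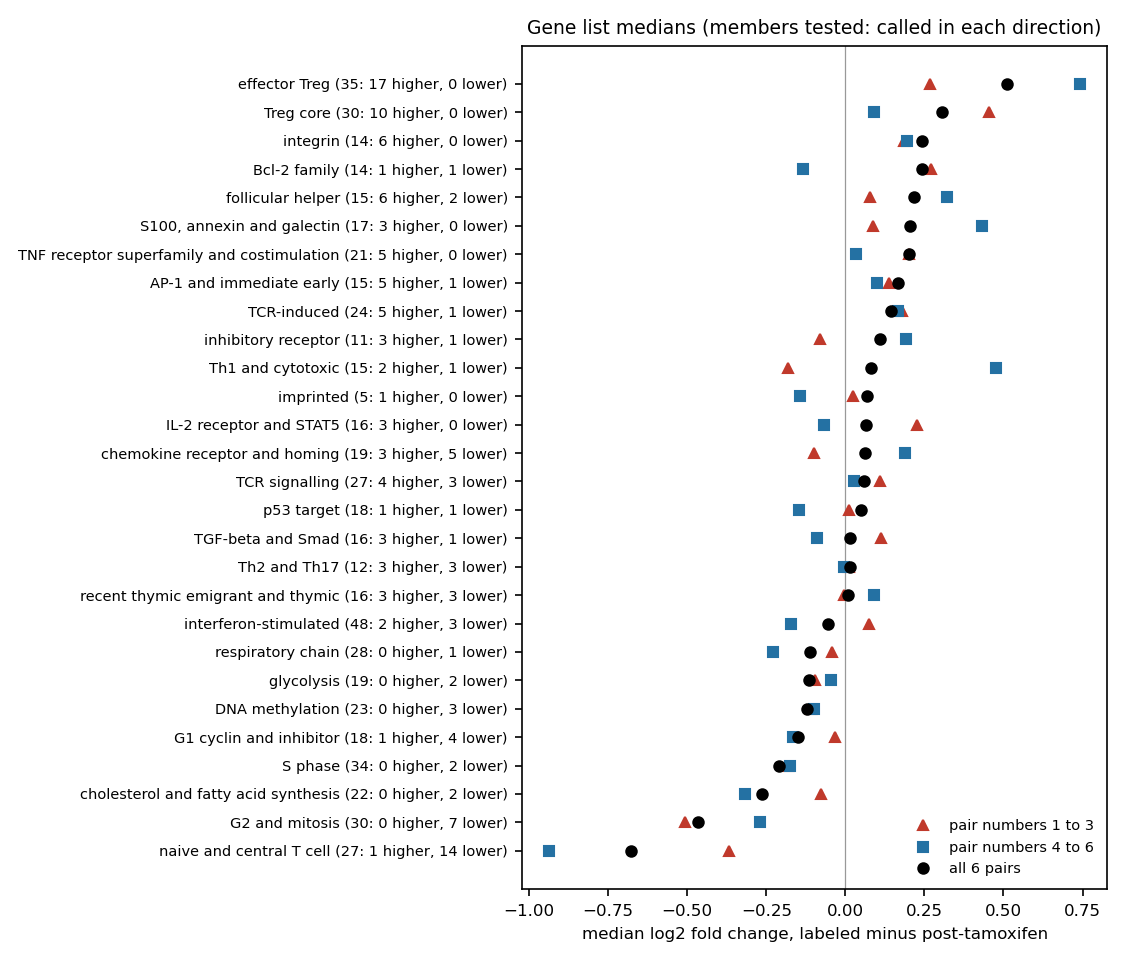
Median log2 fold change of labeled minus post-tamoxifen cells (x axis) for each T cell gene list with at least 5 tested members, over all 6 pairs (black circles), numbers 1 to 3 (red triangles) and numbers 4 to 6 (blue squares), with the number of members tested and called beside each name. Effector Treg genes have the highest median (0.51) and naive and central T cell genes the lowest (-0.68), and both lie farther from 0 in numbers 4 to 6.

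Some cell cycle genes were lower in labeled cells. Of 30 G2 and mitosis genes tested, 0 were higher and 7 lower, with a median of -0.46, beside 3.55% of all genes called lower. Of 34 S phase genes 0 were higher and 2 lower, a share near that of all genes, with a median of -0.21. These were the helicase subunits Mcm2, whose call was lost without any of numbers 1, 2, 3, 5 or 6, and Mcm5, whose call was lost without number 4. Top2a, the topoisomerase of replicating chromosomes, was at 717, 414, 588, 65.1, 81.1 and 89.8 CPM in labeled numbers 1 to 6 and at 839, 691, 942, 71.9, 122 and 130 CPM in the post-tamoxifen partners. It was lower in 6 of 6 pairs (-0.51 ± 0.08, adjusted p = 0.000105), although the groups overlapped throughout. Mki67, the proliferation marker, was lower in 5 of 6 pairs (-0.35 ± 0.09, adjusted p = 0.0131), and it lost its call without number 2 or 3. With the carry-over signal held constant 0 mitosis genes were called in either direction, and in numbers 4 to 6 alone 1 was lower. The highest post-tamoxifen sum, 6901 CPM, was that of number 3, the library with the highest macrophage sum, and a link between them was not tested. Rbl2, a pocket protein of resting cells, was higher without overlap (480 ± 71.8 against 313 ± 25.8 CPM, 0.60 ± 0.08, adjusted p = 1.69e-05), and Rb1 was lower (-0.46 ± 0.11, adjusted p = 0.0083, not called without number 6).

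Control mice, in which the label marks cells with intact Uhrf1, were compared in the same way. Of 9253 genes tested there, 355 were higher in labeled cells (3.84%) and 260 lower (2.81%), from libraries that are not shared with the fl/fl comparison. Of the 433 genes higher in fl/fl mice 184 were also higher in controls, and of the 327 lower genes 106 were also lower. Nrp1 had a log2 fold change of 1.51 in controls, Fgl2 2.166, Actn1 -1.20, Bach2 -1.137, Ccr7 -0.84 and Ikzf1 -0.75, each past the threshold. Of the 27 naive and central genes, 18 were lower and 0 higher in controls (median -0.80), and of 32 effector genes tested in both, 13 were higher and 0 lower, with 32 positive in controls and 29 in fl/fl mice. The effector list's median was 1.08 in controls and 0.51 in fl/fl mice. Ttn (2.83 ± 0.84, adjusted p = 0.176) and Klrg1 (3.72 ± 0.84, adjusted p = 0.0653) had larger values in controls without passing the test there. Macrophage genes summed to between 463 and 3495 CPM in control post-tamoxifen libraries and between 503 and 564 CPM in control labeled ones, so the ranges overlapped.

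The difference between the 2 genotypes was tested directly, with levels scaled together over both. Of 9753 genes, 9 differed in their label effect (0.0923%), all with a lower value in fl/fl mice, and 1084 had an unadjusted p under 0.05. Gbp3, an interferon-induced GTPase, was at 173 ± 23.8 CPM in labeled and 173 ± 37.3 CPM in post-tamoxifen fl/fl libraries and at 146 ± 15.5 and 69.6 ± 15.7 CPM in controls, a difference of -1.07 ± 0.15 (adjusted p = 0.00111). Gbp1, its neighbour in the same family, was at 8.07 ± 3.06 and 25.8 ± 18.6 CPM in fl/fl mice and at 10.8 ± 3.83 and 2.15 ± 1.138 CPM in controls (-3.78 ± 0.59, adjusted p = 0.00244). The fl/fl difference of Gbp1 was -1.51 and became -0.43 (adjusted p = 0.76) with the carry-over signal held constant. Near copies make the split of reads among Gbp genes uncertain. Melk, a mitotic kinase, gave -2.74 ± 0.49 (adjusted p = 0.0117), and Rilpl2 -0.92 ± 0.18 (adjusted p = 0.0342). Hist1h2an, D17H6S56E-5, Ube2c, Osbpl3 and Hint1 were the others. DESeq2 gave no adjusted p for these 9 genes and called 36 others, among them Mki67, S100a10 and Tet3, and without the block 1 gene was called.

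In the fits over all pairs, most proliferation genes had opposite signs in the 2 genotypes. Of 26 G2 and mitosis genes tested in both genotypes, 26 were positive in controls and 0 in fl/fl mice, with list medians of 0.83 and -0.46. Only 2 of them passed the test in controls, and in edgeR only Ube2c of the list differed between genotypes (-2.53 ± 0.50, adjusted p = 0.0342). DESeq2 gave no adjusted p for Ube2c and called Mki67 (adjusted p = 0.0415), which edgeR did not call (0.274). The mitosis list's fl/fl median was -0.27 in numbers 4 to 6 alone and -0.18 with the carry-over signal held constant. Some members were positive in these 2 fits, such as Tpx2 (0.26 and 0.68) and Cdk1 (1.73 and 1.54). S phase genes were positive in 25 of 32 cases in controls and in 4 of 32 in fl/fl mice. Uhrf1, whose expression follows S phase, was at 50.8 ± 38.6 CPM in labeled and 29.6 ± 18.2 CPM in post-tamoxifen control libraries (0.65 ± 0.30, adjusted p = 0.252). The fl/fl minus control difference for Uhrf1 was -1.53 ± 0.30, which did not pass the threshold (adjusted p = 0.056).

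**Figure D5:**
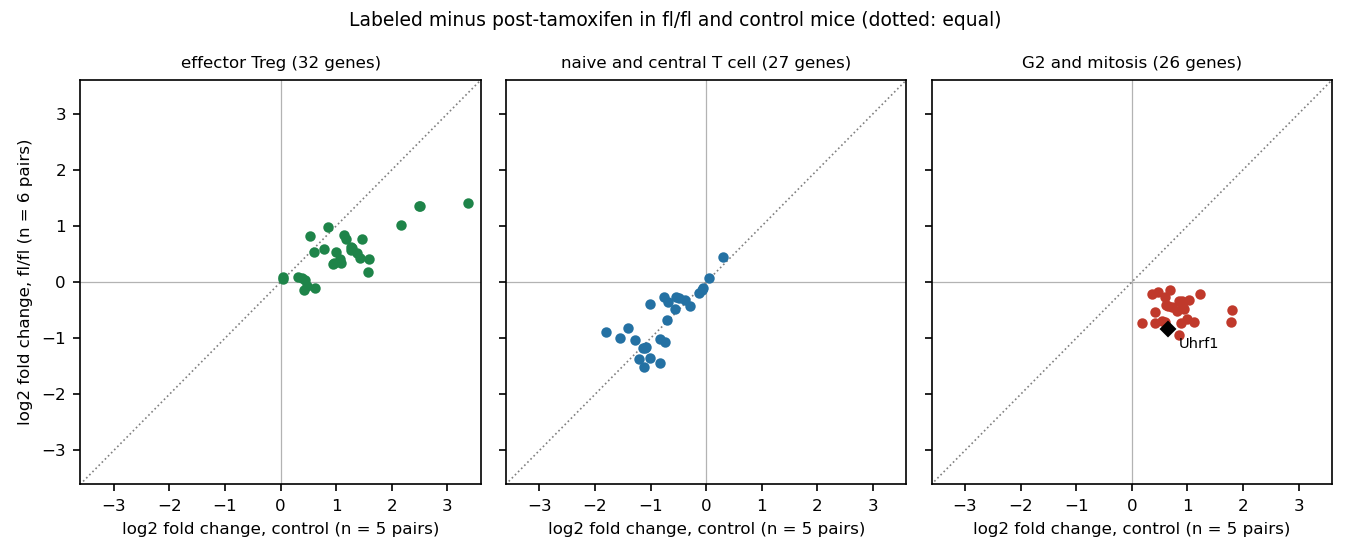
Log2 fold change of labeled minus post-tamoxifen cells in control mice (x axis, n = 5 pairs) and in Uhrf1 fl/fl mice (y axis, n = 6 pairs) for effector Treg, naive and central T cell, and G2 and mitosis genes, with the dotted line where both are equal and Uhrf1 as a diamond in the right panel. Effector and naive genes keep their sign in both genotypes, with few exceptions, while all 26 mitosis genes are above 0 in controls and below 0 in fl/fl mice in these fits over all pairs.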

How the data were processed

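RNA from sorted Treg cells was made into libraries with a stranded total RNA kit (Takara SMARTer), per the labels' protocols. TopHat2 2.1.0, bcl2fastq 2.17.1.14 and the builds mm10 and GRCm38 stand in the submitters' processing notes. The authors deposited a table of raw counts per gene (19434 genes, 41 libraries); whether counting used strand is not given in the sources used here, so overlapping antisense genes cannot be told apart.

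Counts were fitted with edgeR 4.0.16 (TMM scaling, default filter on low counts, robust quasi-likelihood test, two-sided, Benjamini-Hochberg adjustment over all genes tested, threshold 0.05), with the pair number as a block. Log2 fold changes are labeled minus post-tamoxifen, the value after ± is the SE for fold changes and the SD (n = 6, or 5 in controls) for levels, and CPM levels are TMM-scaled. Sums over marker genes use CPM without TMM scaling. The rule of the comparison pairs libraries by number, and the labels call the libraries biological replicates without naming a mouse for each number. Deviations from group means correlated between libraries of the same number (r between 0.297 and 0.514 in the 6 pairs). Libraries of different numbers correlated at up to 0.408 within numbers 1 to 3 or 4 to 6, and labeled number 5 matched post-tamoxifen number 4 (0.37) better than its partner, so part of the correlation follows that split.

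Named genes were Uhrf1 and Foxp3, the 10 largest called changes in each direction at a mean log2 CPM of at least 4 and with the same sign in 5 of 6 pairs, up to 3 called members in each direction and 2 abundant uncalled members of each list, and 5 genes of the genotype difference, leaving out carry-over, predicted, receptor segment, mitochondrial and ribosomal protein genes. The members and lists were chosen with earlier results of these data known. On simulated counts for this comparison (9041 genes) the test recovered 81 of 100 genes changed 2-fold and 97 of 100 changed 4-fold, with 8 false calls. The changed genes were drawn from those at a mean log2 CPM of at least 4, so the recovery does not cover lower genes. Counts came from the fitted model with 1 size of change per gene. Carry-over and label effects that differ between numbers 1 to 3 and 4 to 6 were therefore absent. Alternatives covered scaling, filtering, DESeq2 1.42.0, limma 3.58.1, the block, the libraries in the fit, carry-over and each pair left out. Promoter sequences are from RefSeq. Chimera libraries were not used here.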

Additional observations from a re-analysis of the deposited data

Results flagged for a closer look

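Single libraries stood apart from the other 5 of their group in 25 of 252 groups screened, judged by the gap to the nearest library relative to the group's range (Dixon's 95% criterion). Chance alone flags about 5% of groups. In labeled number 1 stood Ugcg at 86.9 CPM (others 59.6 to 68.8) and Eomes at 8.41 CPM (others 0 to 3.11). In labeled number 3 stood Ccr9 at 5.78 CPM (others 0 to 0.701), Syk at 3.37 CPM (others 0.414 to 1.4) and Mpeg1 at 16.4 CPM (others 0 to 4.88). In labeled number 5 stood Foxp3 at 513 CPM (others 321 to 384), Tnfrsf18 at 279 CPM (others 166 to 207) and Junb at 347 CPM (others 163 to 230). In labeled number 6 stood Fam160a1 at 59.5 CPM (others 13.8 to 21.1), Nt5e at 455 CPM (others 262 to 328) and Pdk1 at 104 CPM (others 61.7 to 77.4). The same library had Nfatc1 at 845 CPM (others 616 to 694) and summed NK cell markers at 0.783 CPM (others 0 to 0). In post-tamoxifen number 1 stood Itgae at 389 CPM (others 57.6 to 174) and summed dendritic cell markers at 512 CPM (others 44 to 176). In post-tamoxifen number 3 stood Ikzf2 at 408 CPM (others 871 to 1101), Itgb8 at 27.2 CPM (others 67.8 to 91) and Lrp1 at 297 CPM (others 37.2 to 101). The same library had Itgad at 104 CPM (others 9.28 to 44.4), Sdc3 at 226 CPM (others 32.5 to 66.6) and Trf at 159 CPM (others 12.7 to 37). The same library had Eomes at 33.4 CPM (others 4.42 to 14) and summed macrophage and monocyte markers at 3977 CPM (others 755 to 1617). In post-tamoxifen number 5 stood Rbl2 at 265 CPM (others 312 to 337) and Jun at 82.1 CPM (others 9.35 to 24.1). Post-tamoxifen number 3 was also the library with the most macrophage signal, and the part of that signal in its values was not tested.

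The effect of the label differed between genotypes for 9 genes, tested as an interaction in edgeR, given as log2 fl/fl minus control: Gbp3 (-1.07), Gbp1 (-3.78), Hist1h2an (-3.38), Melk (-2.74), D17H6S56E-5 (-0.93), Rilpl2 (-0.92), Ube2c (-2.53), Osbpl3 (-1.001) and Hint1 (-0.97). The label effect was lower in fl/fl mice for all 9. Reads of Gbp1, Gbp3 and Hist1h2an can be shared with near copies, which makes their counts uncertain.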

How the results depend on the processing

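Without the pairing by number as a block, 130 genes were higher and 72 lower, 130 and 70 of them also called with it. Numbers 1 to 3 alone gave 205 higher genes. Without a filter on low counts 600 genes were lower. Other alternatives kept both counts within 1.5 times, and leaving out 1 pair gave between 290 and 391 higher and between 230 and 341 lower genes. Similar counts did not mean the same genes. Of the 433 higher and 327 lower genes, numbers 1 to 3 alone also called 176 and 127, and numbers 4 to 6 alone 291 and 191. The genotype difference gave 1 gene without the block, 241 without a filter and 36 with DESeq2, against 9. The macrophage sum differed by between -1221 and -581 CPM with 1 pair left out, each with an exact p of 0.0625, the smallest that 5 pairs allow. Signs turned for Foxp3 with the carry-over signal held constant (-0.42) and in numbers 4 to 6 alone (-0.10). Il2ra (0.15), Lef1 (0.0386) and Gbp3 (-0.0164) turned in numbers 1 to 3 alone. Gbp3 lay between -0.0735 (without number 6) and 0.0657 with 1 pair left out. Ctla4 turned with the carry-over signal held constant (-0.16), in numbers 4 to 6 alone (-0.0048) and without number 3 (-0.0152, up to 0.148 with another pair left out). The cause was not tested. Of 113 genes followed, 102 were called, and 35 of these kept their call under all 19 alternatives. Numbers 1 to 3 alone lost 33 of the calls and numbers 4 to 6 alone lost 14, with 3 pairs in each of these fits. Depth limits genes near 0, whose levels lie below the 3 counts that a count of 0 allows.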

Other observations

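Many of the higher genes were long. The median genomic span was 39.2 kb for higher genes, 28.2 kb for lower genes and 24.3 kb for all genes tested. Among genes split into 5 equal sets by span, in the longest set 8.8% were higher and 5.11% lower, against 3.15% and 4.13% in the shortest set. The median log2 fold change ran from -0.04 in the shortest to 0.03 in the longest set, which is small beside the differences of the named genes, and the part of span in any result was not tested. Ribosomal protein genes, which are short and were listed after the data were seen, lay on the negative side in 77 of 78 cases, with 29 called lower, 1 higher and a median of -0.21. Among all genes, 3.55% were called lower and 4.71% higher, and 4526 of 9199 lay on the positive side. The share of ribosomal protein genes in all counts was 3.58, 4.19, 3.92, 4.07, 4.41 and 4.02% in labeled numbers 1 to 6 and 3.66, 4.47, 4.16, 5.25, 5.35 and 4.88% in post-tamoxifen numbers 1 to 6. The shares were lower in labeled cells in all pairs, by more in numbers 4 to 6. In control mice the median of the ribosomal protein genes was 0.09. It lay between -0.34 and -0.07 in fl/fl mice under every alternative tried.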
